A study of Mus musculus with 2 samples.

Results

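Chromatin loops around the HoxA gene cluster were examined in the mouse uterus, on chromosome 6 of mm10. The loops described are those of the deposited Hi-C loop lists with at least 1 anchor between positions 51500000 and 53300000, a window of 1.8 Mb that holds the Hoxa genes, Evx1 and their neighbours. This gave 48 of the 24131 loops listed in estrus and 47 of the 26240 listed in diestrus, or 95 of 50371 entries in all. The samples were uterine tissue of unexposed control CD-1 mice aged 2 months, with 1 library in estrus and 1 in diestrus. Both stages share the stock, the age and the lack of exposure, and CD-1 is an outbred stock. The labels do not say how many animals went into each library. Hi-C joins and sequences pieces of DNA that were neighbours in the nucleus, and a loop is a pair of anchors, here 10 kb wide, with more contacts than its local surroundings. Each stage has a single library, so stage differences could not be set against a spread between replicates, and p-values are not given. Intervals are at 95% and cover counting error only. Uterine tissue mixes cell types, so a change in a loop within cells and a change in the share of cells that carry it cannot be told apart.

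Hox genes encode homeodomain transcription factors that give tissues their identity along the body axis, and their order on the chromosome follows the order in which they are used. In the reproductive tract the later genes of the HoxA cluster divide the Müllerian duct, with Hoxa9 marking the oviduct, Hoxa10 the uterus, Hoxa11 the lower uterus and cervix, and Hoxa13 the upper vagina. Hoxa10 and Hoxa11 stay active in the adult endometrium, where both are needed for implantation and respond to ovarian steroids. Loops bring such genes close to distant regulatory DNA or to the borders of chromatin domains, and many are formed by cohesin and held by the insulator protein CTCF.

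The promoters of the genes at the turning point of the cluster are printed to show what lies in the anchors described below. RefSeq promoter windows (GRCm38.p6, the assembly that mm10 names) run from 250 bases before to 50 bases after the transcription start, on the minus strand for each Hoxa gene shown. All 8 of the genes named for this locus, Hoxa5, Hoxa6, Hoxa7, Hoxa9, Hoxa10, Hoxa11, Hoxa13 and Evx1, had a window in the table. Capitals mark a match to a CTCF core, and the other letters are in lower case.
Hoxa9, chr6:52227321-52227620: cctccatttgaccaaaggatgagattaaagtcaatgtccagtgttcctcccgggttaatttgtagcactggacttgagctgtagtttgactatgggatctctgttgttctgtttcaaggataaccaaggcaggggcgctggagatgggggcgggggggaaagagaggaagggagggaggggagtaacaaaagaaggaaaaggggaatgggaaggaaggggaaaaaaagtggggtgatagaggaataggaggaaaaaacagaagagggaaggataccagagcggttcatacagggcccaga
Hoxa10, downstream start, chr6:52234890-52235189: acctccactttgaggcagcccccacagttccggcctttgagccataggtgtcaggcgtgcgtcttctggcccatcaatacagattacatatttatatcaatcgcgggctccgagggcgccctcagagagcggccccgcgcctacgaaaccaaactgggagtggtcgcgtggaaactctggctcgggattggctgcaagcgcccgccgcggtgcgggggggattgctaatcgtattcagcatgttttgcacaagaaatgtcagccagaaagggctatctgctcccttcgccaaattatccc
Hoxa10, upstream start, chr6:52240805-52241104: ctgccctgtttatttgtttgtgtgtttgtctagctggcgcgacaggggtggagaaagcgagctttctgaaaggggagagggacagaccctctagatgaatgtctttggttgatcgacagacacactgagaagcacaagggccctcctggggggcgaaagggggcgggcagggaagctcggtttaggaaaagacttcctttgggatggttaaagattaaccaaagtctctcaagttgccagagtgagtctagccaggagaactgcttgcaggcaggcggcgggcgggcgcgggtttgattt
Hoxa11, chr6:52245761-52246060: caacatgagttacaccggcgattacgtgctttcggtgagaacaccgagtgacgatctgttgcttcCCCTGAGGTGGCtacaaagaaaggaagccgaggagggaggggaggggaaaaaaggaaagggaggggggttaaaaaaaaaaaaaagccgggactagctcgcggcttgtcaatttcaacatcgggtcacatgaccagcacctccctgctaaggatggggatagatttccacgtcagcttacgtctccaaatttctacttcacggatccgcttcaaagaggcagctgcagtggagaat
Hoxa13, chr6:52260831-52261130: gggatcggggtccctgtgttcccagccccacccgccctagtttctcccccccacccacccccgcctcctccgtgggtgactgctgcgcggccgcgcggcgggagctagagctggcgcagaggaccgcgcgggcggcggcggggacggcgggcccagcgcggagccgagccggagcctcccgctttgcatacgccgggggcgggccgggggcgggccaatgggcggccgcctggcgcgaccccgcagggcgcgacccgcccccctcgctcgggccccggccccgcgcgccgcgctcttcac

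The CTCF core searched was CC, 3 free bases, AG, 2 free bases and then GGC, on either strand. Among the cluster's windows it matched only that of Hoxa11, at bases 66 to 77 of the printed strand, and it matched 8.61% of all 32851 promoter windows. A full estrogen response element (GGTCA, 3 free bases, then TGACC) was in 0.0700% of all windows. A progesterone response element (G, a free base, ACA, 3 free bases, TGT, a free base, then C) was in 0.475%. Neither stood in a window of the cluster. These are matches of letters only, and a window without a match says nothing of the rest of its anchor. By base composition the 5 printed windows ranged from 49.7% G or C at Hoxa9 to 81.0% at Hoxa13.

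The cluster showed 2 sets of loops that left it in opposite directions. Anchors of the cluster up to that of Hoxa11 sent 11 loops in estrus and 8 in diestrus, all of them towards lower positions, the side of the adaptor gene Skap2. Anchors from Hoxa13 to Evx1 sent 9 loops in estrus and 9 in diestrus towards higher positions, the side of Hibadh, Tax1bp1 and Jazf1. Against this direction these later anchors had 1 loop in estrus and 2 in diestrus, and in diestrus 1 further loop had both anchors inside the cluster. The change of direction fell at the same place in both libraries, between the anchor at chr6:52240001-52250000, which holds Hoxa11 and the upstream start of Hoxa10, and the anchor at chr6:52250001-52260000, which holds the 3′ end of Hoxa13 but not its start. In estrus no anchor of a loop towards Skap2 lay above one of a loop towards Jazf1, while in diestrus those at the Hoxa13 start and at Evx1 did.

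**Figure D1:**
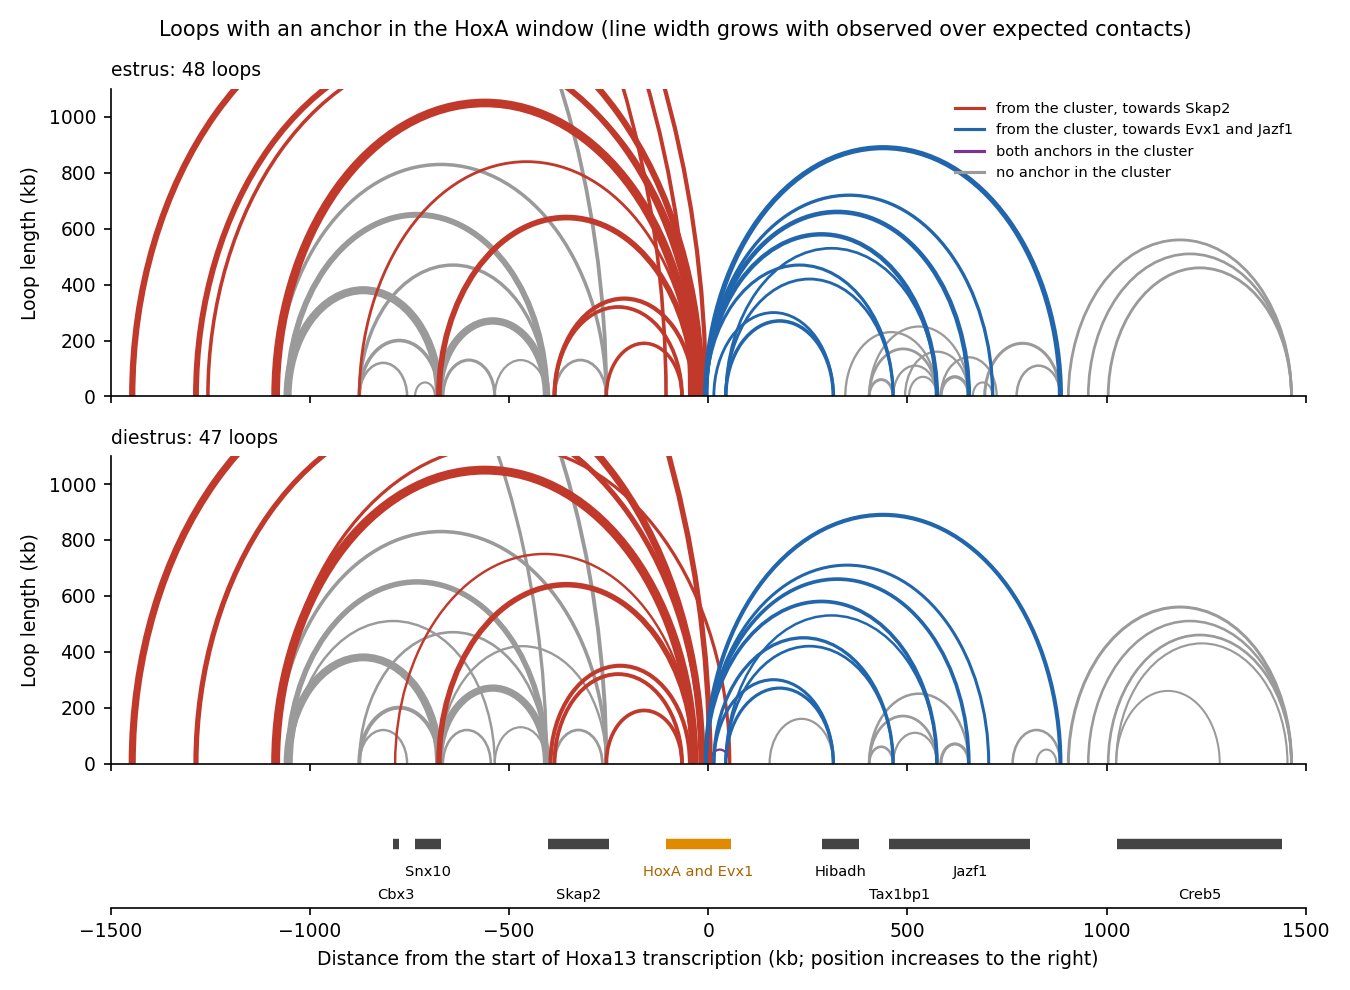
Loops in the HoxA window in estrus (upper panel) and diestrus (middle panel), with genes below. The x axis is the distance in kb from the transcription start of Hoxa13, the y axis is loop length in kb, line width grows with strength, and loops longer than the axis are cut at its top. The 9 loops of each stage that leave the cluster towards Jazf1 start at or beyond Hoxa13.

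Hoxa9, a regulator of oviduct identity, held the loop with most contacts of the window in either library. It ran over 1050 kb from the Hoxa9 anchor at chr6:52220001-52230000 to chr6:51170001-51180000, an anchor without an annotated gene. The loop had 833 contacts (777 to 892) in estrus and 963 (903 to 1026) in diestrus. Its strength, the observed contacts over those expected from the surrounding donut-shaped neighbourhood, was 14.7 in estrus and 15.1 in diestrus, and 0.829% of all estrus loops and 0.713% of all diestrus loops were stronger. After centring on the median of all loops paired between the libraries, this loop's log2 strength in estrus minus that in diestrus was -0.05 (-0.19 to 0.08). The interval spans 0, so a difference was not detectable at this depth. With the horizontal neighbourhood as background the value was 0.13, and with the vertical one -0.25.

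A second Hoxa9 loop, of 640 kb, ended inside Snx10, a sorting nexin gene of the endosome. It had 179 contacts (154 to 207) in estrus and 181 (156 to 209) in diestrus, with a strength of 9.01 and 8.67. Another, of 350 kb, ended inside Skap2, with 168 contacts (144 to 195) in estrus. Its counterpart in diestrus lay in the next bin, at Hoxa7, with 167 contacts (143 to 194), and this shift moves a loop from Hoxa7 to Hoxa9 in the counts per gene. The centred log2 ratios of these loops were 0.04 (-0.27 to 0.35) and 0.05 (-0.27 to 0.37). In estrus alone Hoxa9 had a loop of 840 kb with 48 contacts (35.4 to 63.6) and strength 3.45, to an anchor 42.7 kb from the transcription factor gene Nfe2l3. In diestrus alone it had a loop of 750 kb with 44 contacts (32.0 to 59.1) and strength 2.67, to an anchor with ends of Hnrnpa2b1, an RNA-binding protein gene, and Cbx3, which encodes a heterochromatin protein. Hoxa9 thus had 4 loops in estrus and 3 in diestrus.

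Hoxa10, the homeobox gene of the uterus and its stroma, had 3 loops in estrus and 2 in diestrus, all longer than 1 Mb and all towards the Skap2 side. The loop of 1430 kb, from the anchor that holds the Hoxa10 upstream start together with Hoxa11, reached chr6:50810001-50820000, which holds an end of C530044C16Rik and lies 156 kb from the neuropeptide gene Npvf. It had 94 contacts (76.0 to 115) at 10.1 times the expected number in estrus, and 147 contacts (124 to 173) at 11.7 times in diestrus. The contact numbers differed by more than their counting error, but the expected contacts differed in the same direction, 9.33 in estrus and 12.5 in diestrus, and the centred log2 ratio was -0.23 (-0.62 to 0.15).

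The next Hoxa10 loop ran to chr6:50970001-50980000, at an end of Gm38809. In estrus it was placed at the Hoxa10 downstream start, with 170 contacts (145 to 198), a length of 1260 kb and strength 9.33. In diestrus it was placed 1 bin higher, at the upstream start and Hoxa11, with 250 contacts (220 to 283), a length of 1270 kb and strength 8.04. Because the paired loops lie in different bins, the ratio of 0.20 (-0.09 to 0.49) compares neighbouring bins. With the bottom-left neighbourhood as background it was 0.72, over 1.5-fold, with the horizontal one 0.50 and with the vertical one -0.01. Estrus had a further loop, of 1240 kb from the Hoxa10 upstream start and Hoxa11, with 105 contacts (85.9 to 127) and strength 4.82. It was not found in diestrus at a tolerance of 10 kb, although both of its anchors were anchors of other loops there. At a tolerance of 20 kb it was found, but by the diestrus loop of 1270 kb that is already paired above, not by a counterpart of its own.

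Hoxa11, needed for stromal and gland development, had both of its gene ends in the anchor it shares with the upstream start of Hoxa10, so all its loops were also loops of Hoxa10. It had 2 loops in estrus, with 199 contacts in sum, and 2 in diestrus, with 397. The loop to 50970001 counts for Hoxa11 in diestrus only, because of the bin at which it was placed. Over the bins of Hoxa10 and Hoxa11 together, the 2 loops paired between the libraries held 264 contacts in estrus and 397 in diestrus. Their contact ratios were 0.639 (0.488 to 0.834) and 0.680 (0.556 to 0.830), below the 0.957 over all pairs of the genome. The second of these compares neighbouring bins. Against their backgrounds the 2 pairs went opposite ways, with centred log2 ratios of -0.23 (-0.62 to 0.15) and 0.20 (-0.09 to 0.49). With the further estrus loop, of 105 contacts, the estrus sum was 369. Taken per gene, the loops of Hoxa10 and Hoxa11 therefore could not be separated at a bin width of 10 kb.

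Hoxa13, the posterior gene of the cluster, had 6 loops in estrus and 6 in diestrus. In estrus 5 of them, and in diestrus 4, left from the anchor at the 3′ end of the gene towards higher positions. Of the 5 pairs from this anchor, 4 had a strength ratio above 0, and contacts were higher in estrus at 3 and lower at 2. The loop of 660 kb into Jazf1, a zinc finger gene known from gene fusions in human endometrial stromal tumours, had 176 contacts (151 to 204) in estrus and 127 (106 to 151) in diestrus. Its strength was 6.87 in estrus and 5.05 in diestrus, and the centred log2 ratio was 0.43 (0.09 to 0.77). A loop of 580 kb to another site inside Jazf1 had 191 contacts (165 to 220) in estrus and 145 (122 to 171) in diestrus, with strengths of 6.56 and 5.13 and a ratio of 0.34 (0.02 to 0.66). These were the 2 cluster pairs whose interval lay above 0, and no cluster pair had an interval below 0. Across all 19399 pairs of the genome, 6.36% had such an interval above 0 and 6.98% below.

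The other upward loops of the Hoxa13 anchor were less certain. The longest, of 890 kb, ended 71.4 kb beyond Jazf1, with 43 contacts (31.1 to 57.9) in estrus and 30 (20.2 to 42.8) in diestrus and a ratio of 0.41 (-0.30 to 1.13). A loop of 720 kb in estrus and 710 kb in diestrus, also into Jazf1, had 63 contacts (48.4 to 80.6) and 79 (62.5 to 98.5), at 4.37 and 3.83 times the expected number. The loop of 470 kb into Tax1bp1, an autophagy adaptor gene, had 114 contacts (94.0 to 137) in estrus. Its counterpart in diestrus started 20 kb higher, beyond the Hoxa13 gene, with 142 contacts (120 to 167), and the ratio was -0.13 (-0.49 to 0.24).

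In the other direction, the Hoxa13 region had a loop of about 3 Mb to the anchor at chr6:49210001-49220000, which holds an end of Igf2bp3, a gene for an mRNA-binding protein. It spanned 3040 kb with 46 contacts (33.7 to 61.4) in estrus and 3050 kb with 41 contacts (29.4 to 55.6) in diestrus, at 6.07 and 8.46 times the expected number. In estrus it was placed at the 3′ end of Hoxa13 and in diestrus in the next bin, at its start, so these values compare neighbouring bins. The estrus list also joined this Igf2bp3 anchor to the bin of Hoxa7, with 39 contacts (27.7 to 53.3), a loop that was not found in diestrus. Both lists also joined the Igf2bp3 region to Skap2, with 31 contacts (21.1 to 44.0) in estrus and 32 (21.9 to 45.2) in diestrus.

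Hoxa7 had 1 loop in each library, the one to Igf2bp3 in estrus and the one to Skap2 in diestrus. Hoxa5 and Hoxa6, which lie in the bin between those of Hoxa4 and Hoxa7, had no loop in either. Among the earlier genes, which pattern the hindbrain and the axial skeleton, Hoxa4 had 2 loops in each library. Its loop of 190 kb into Skap2 had 271 contacts (240 to 305) in estrus and 288 (256 to 323) in diestrus, with a ratio of -0.13 (-0.37 to 0.12). Its loop of 320 kb, also into Skap2, had 154 contacts (131 to 180) in estrus and 172 (147 to 200) in diestrus, with a ratio of -0.11 (-0.43 to 0.22). Hoxa2 and the lncRNA gene Halr1 had no loop in either library, and Hoxa3 had 1 in each.

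Evx1, a homeobox gene next to the cluster, had 0 loops in estrus and 2 in diestrus. The diestrus loops ran over 50 kb to the start of Hoxa13 and the lncRNA gene Hottip, with 187 contacts (161 to 216) at 2.35 times the expected number, and over 1140 kb to chr6:51170001-51180000, with 97 contacts (78.7 to 118) at 4.18 times. The longer of these ended at the anchor of the strongest Hoxa9 loop. The neighbouring bin, which holds an end of Evx1os, the antisense gene of Evx1, had 3 loops in each library. Of these, the loop of 270 kb into Hibadh, a gene of valine breakdown, had 369 contacts (332 to 409) in estrus and 311 (277 to 348) in diestrus, and the ratio was 0.21 (-0.02 to 0.43). The loop of 420 kb into Tax1bp1 had 112 contacts (92.2 to 135) in each library, and that of 530 kb into Jazf1 had 113 (93.1 to 136) in estrus and 96 (77.8 to 117) in diestrus.

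**Figure D2:**
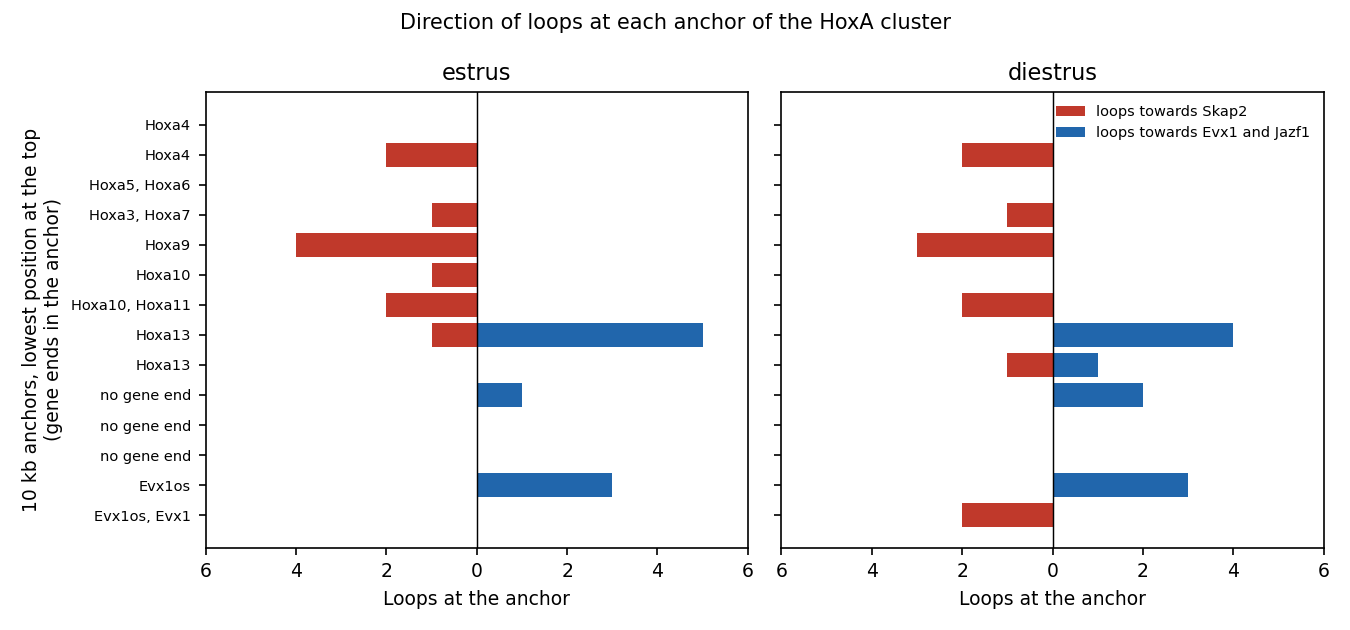
Number of loops at each 10 kb anchor of the cluster, in estrus (left) and diestrus (right), from Hoxa4 at the top to Evx1 at the bottom. Bars to the left count loops towards lower positions and bars to the right loops towards higher positions, and the diestrus loop inside the cluster counts at both of its anchors. Hoxa9 has 4 and 3 loops to the left, and the lower Hoxa13 anchor 5 and 4 to the right.

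Of the 8 genes, 2 had more loops in estrus (Hoxa9 and Hoxa10), 1 had more in diestrus (Evx1), 3 had equal numbers and 2 had none. Among 21627 protein-coding genes, 10.5% had more loops in estrus and 14.0% more in diestrus, with a median difference of 0, the same median as for the 8 genes. Of the 21627, 12581 had no loop in either library, so their median was bound to be 0 and their shares are low. These counts depend on how loops are assigned. When a gene end could lie up to 5 kb outside an anchor, Hoxa5 had 2 loops in estrus and 2 in diestrus, Hoxa6 had 3 and 3, Hoxa7 had 5 and 4, Hoxa9 had 6 and 4, Hoxa10 had 7 and 5, Hoxa11 had 9 and 6, and Evx1 had 3 and 5. By the transcription start alone, Hoxa13 had 0 loops in estrus and 2 in diestrus, since its other loops leave from the anchor of its 3′ end.

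The strength of paired loops was compared over 37 pairs in the window, of which 28 lay at the same position. None was over 1.5-fold stronger in estrus, and none in diestrus, where 1.64% and 1.56% of all 19399 pairs passed that limit. The pair nearest to it, at 1.46-fold, joined the anchor 42.7 kb from Nfe2l3 to an end of Skap2, with 118 contacts (97.7 to 141) in estrus and 96 (77.8 to 117) in diestrus. The next, from an end of Snx10 to a site 129 kb from Skap2, had 184 contacts (158 to 213) in estrus and 166 (142 to 193) in diestrus, with a ratio of 0.44 (0.13 to 0.76). Among the ratios below 0, the lowest was that of the Hoxa13 loop to Igf2bp3, at -0.49 (-1.13 to 0.15), which compares neighbouring bins. The next was -0.33 (-0.72 to 0.06), for the loop of 250 kb from near Hibadh into Jazf1. The interval lay above 0 at 5 of the 37 pairs, against 6.36% of all pairs, and below 0 at none, against 6.98%. The centred log2 ratio over the window had a median of 0.04, against 0 over all pairs by construction, and 24 pairs were stronger in estrus and 13 in diestrus. The 9 pairs from the cluster towards the Evx1 and Jazf1 side had a median of 0.21, with 7 stronger in estrus, and their contacts summed to 1432 in estrus and 1305 in diestrus. The 8 pairs towards the Skap2 side had a median of -0.08, with 3 stronger in estrus, and their contacts summed to 1915 and 2209. Over all pairs of the genome the contacts in estrus were 0.957 times those in diestrus. Pairs that share an anchor are not independent, and the split by side was set with earlier results of these data known. With the vertical neighbourhood as background the medians were 0.03 and -0.17, so the upward median moved close to 0 under that setting. With the horizontal one the medians were 0.27 and 0.01.

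**Figure D3:**
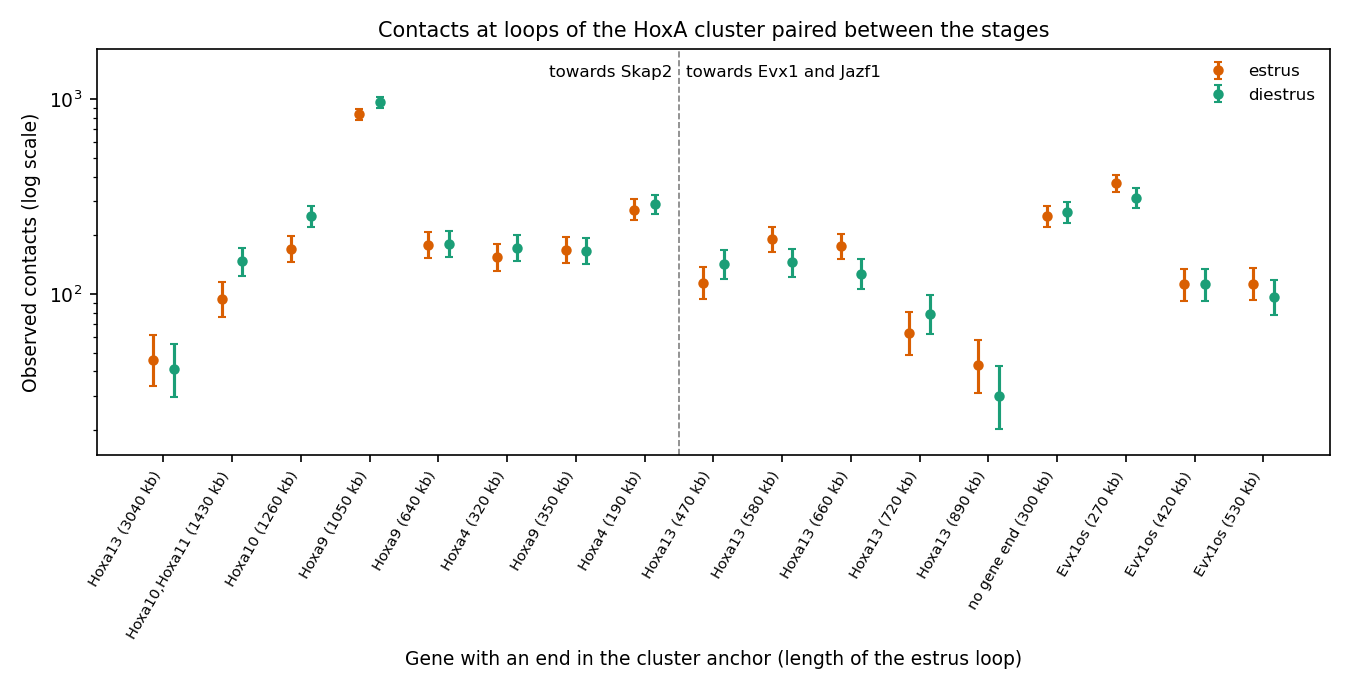
Observed contacts (log scale) at the 17 cluster loops paired between estrus (orange, left of each pair) and diestrus (green), with exact Poisson intervals at 95%. Loops towards Skap2 stand left of the dashed line and loops towards Evx1 and Jazf1 right of it. The Hoxa9 loop of 1050 kb has most contacts, 833 in estrus and 963 in diestrus.

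**Figure D4:**
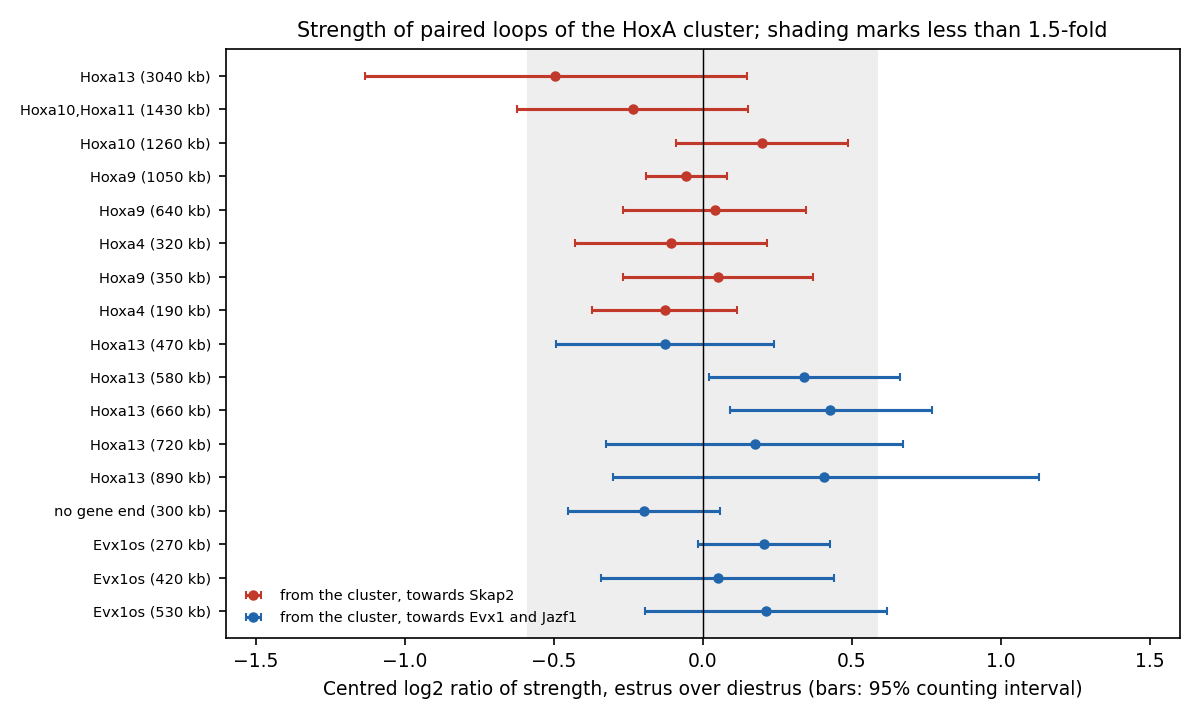
Centred log2 ratios (x axis, estrus over diestrus) of the strengths of the same 17 pairs, with counting intervals at 95%. The intervals of 2 Hoxa13 loops into Jazf1, of 580 and 660 kb, lie above 0, and every point lies inside the shaded band of less than 1.5-fold.

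Most loops of the window were present in both stages. Of the 48 estrus loops, 11 were in the estrus list alone, where 19.2% of all estrus loops were so. Of the 47 diestrus loops, 9 were in that list alone, where 25.6% of all diestrus loops were so. Thus 77.1% (62.7% to 88.0%) of the estrus loops were found in diestrus and 80.9% (66.7% to 90.9%) of the diestrus loops in estrus, and both intervals, which cover chance over loops only, hold the genome-wide shares of 80.8% and 74.4%. Loops of a single list had a median strength of 2.51 in estrus and 2.53 in diestrus, against 4.56 and 4.11 for loops found in both. The corresponding genome-wide medians were 2.57 and 2.56, against 3.74 and 3.68. For 9 of the 11 estrus loops and 6 of the 9 diestrus loops, at least 1 anchor was an anchor of some loop in the other list.

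Around the cluster, some loops between its neighbours also had many contacts, but not all of these were strong. The loop of 270 kb from Snx10 to the lower end of Skap2 had 638 contacts (589 to 689) in estrus and 693 (642 to 747) in diestrus, with a ratio of 0.02 (-0.14 to 0.18). A loop of 380 kb into Snx10 from an end of Gm32403 had 386 contacts (348 to 426) in estrus and 426 (387 to 468) in diestrus, at 13.5 and 13.2 times. On the other side, a loop of 60 kb from an anchor 19.7 kb above Hibadh to Tax1bp1 had 500 contacts (457 to 546) in estrus and 430 (390 to 473) in diestrus, with a ratio of 0.23 (0.04 to 0.42). Its strength was 3.65 in estrus and 3.09 in diestrus, and 45.0% of all estrus loops and 55.7% of all diestrus loops were stronger. A loop of 70 kb within Jazf1 had 426 contacts (387 to 468) in estrus and 367 (330 to 407) in diestrus, at 4.50 and 4.07 times. Of 15 estrus loops with an anchor in Jazf1, 6 had no counterpart in diestrus, beside the 19.2% of all estrus loops, and of 9 such diestrus loops 0 had none in estrus, beside 25.6%. Jazf1 was singled out after these values were seen, many of its loops share anchors, and the difference between stages was not tested. The strongest, of 190 kb to a site 71.4 kb beyond Jazf1, had 109 contacts (89.5 to 131) at 3.88 times the expected number, and a loop of 70 kb from the shared border of Tax1bp1 and Jazf1 had 231 (202 to 263) at 2.24 times. The other 4 had 57 to 177 contacts at 2.10 to 2.51 times. Snx10 had a loop of 50 kb in estrus alone, with 167 contacts (143 to 194) at 2.14 times the expected number. In diestrus alone, a loop of 420 kb joined Snx10 to Skap2 with 56 contacts (42.3 to 72.7) at 2.53 times the expected number. One of 160 kb into Hibadh had 180 (155 to 208) at 2.30 times, and one of 50 kb beyond Jazf1 had 202 (175 to 232) at 2.02 times. Another of diestrus alone, of 260 kb at Creb5, a transcription factor gene, had 116 contacts (95.9 to 139) at 1.90 times the expected number, the lowest strength of the window. A diestrus loop of 430 kb from the same Creb5 anchor was found in estrus, but by a loop of 460 kb from chr6:53260001-53270000. That estrus loop is already paired with a diestrus loop at its own position, so it is not a separate counterpart.

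Loops of the window were long, with a median length of 365 kb in estrus and 420 kb in diestrus, against 230 kb and 240 kb over the genome. A long loop is more likely than a short one to have an anchor in a window, and the part of this rule in the lengths was not tested. Those over 800 kb numbered 11 in estrus and 9 in diestrus. Loops of 800 kb to 2 Mb made up 14.6% in estrus and 12.8% in diestrus, against 9.82% and 10.1% over the genome. Loops over 2 Mb made up 8.33% and 6.38%, against 2.20% and 2.03%. The median strength was 4.21 (3.45 to 4.90) in estrus and 3.83 (3.08 to 4.86) in diestrus, where all loops had medians of 3.43 and 3.28. The intervals of these medians treat loops as independent draws.

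Among the 4 Hox clusters, taken as the span of the Hox genes alone, HoxA had 17 loops in estrus and 14 in diestrus, and HoxD had 13 and 15. HoxB had 10 and 11 loops and HoxC had 5 and 5. Median lengths were 840 kb in estrus and 685 kb in diestrus at HoxA and 600 and 610 kb at HoxD, against 170 and 200 kb at HoxB and 190 and 180 kb at HoxC. At HoxA 12 loops in estrus and 9 in diestrus ran towards lower positions, the side of Skap2, and 5 and 5 ran beyond Hoxa13. At HoxD, which lies on chromosome 2 in the opposite orientation, 9 and 11 ran towards higher positions, the side of the early genes, and 4 and 4 ran beyond Hoxd13. HoxB had 4 and 4 towards lower positions and 5 and 6 towards higher ones, and HoxC had 1 and 1 and 4 and 4. At HoxB, HoxC and HoxD no anchor of a loop towards lower positions lay above one of a loop towards higher positions. Loops in 2 directions were thus not particular to HoxA. These are values of 1 library per stage, and no difference between clusters was tested.

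**Figure D5:**
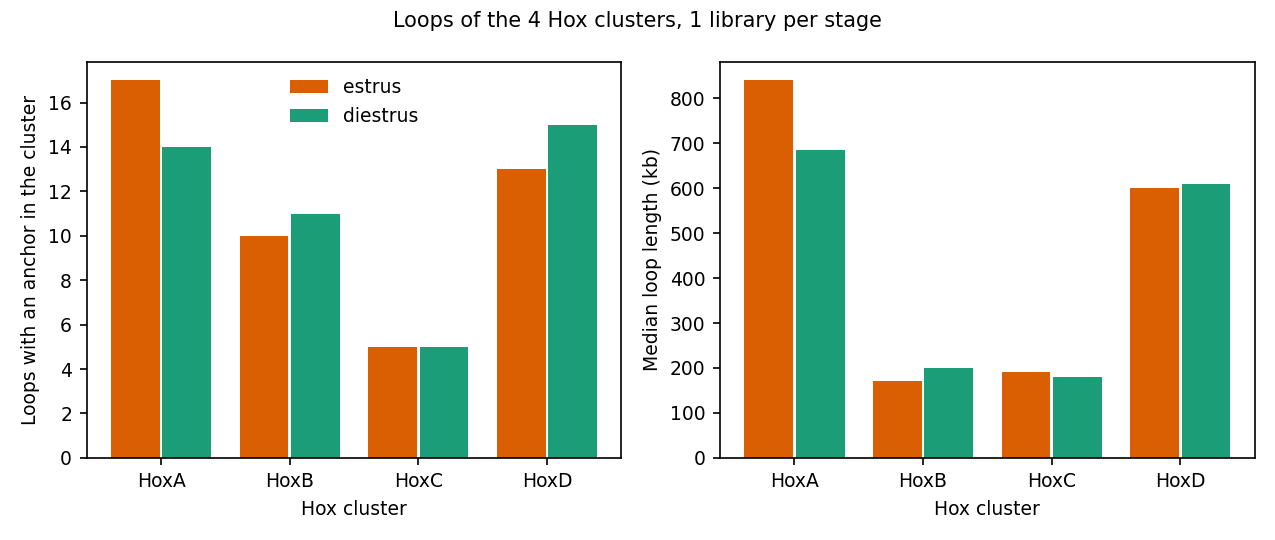
Number of loops (left) and their median length in kb (right) at each Hox cluster, in estrus (orange) and diestrus (green), with 1 library per stage and no error bars. HoxA and HoxD have median lengths of 600 kb or more, and HoxB and HoxC of 200 kb or less.

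Other genes of the Hox pathway were counted from fixed lists, by gene ends in anchors and against the same shares of 10.5% and 14.0% over all protein-coding genes. Genes without a loop in either library lower such shares, and they were 12581 of all 21627. In the lists below they were 2 of 9 cofactors, 7 of 13 Polycomb and Trithorax genes, 2 of 17 uterine genes and 3 of 16 paralogs. The shares are therefore not a like background for these lists. Of 9 genes for Hox cofactors, the partner proteins that bind DNA with Hox factors, 1 had more loops in estrus and 4 had more in diestrus. Meis1 had 2 loops in estrus and 5 in diestrus, but 4 of those 5 were found in estrus. With gene ends up to 5 kb outside an anchor, Meis1 had 31 and 34. Of 13 Polycomb and Trithorax genes, which encode the chromatin regulators that hold Hox genes silent or active, 0 had more loops in estrus and 4 had more in diestrus. Of these, Wdr5 had 0 and 2 loops, and Kdm6a had 3 and 5, with the same numbers for gene ends within 5 kb. Of the diestrus loops, 0 at Wdr5 and 3 at Kdm6a were found in estrus. Of 17 genes that act with Hoxa10 and Hoxa11 in the uterus, 5 had more loops in estrus and 5 more in diestrus. The prostaglandin receptor gene Ptger4 had 8 loops in estrus and 10 in diestrus and the decidual signal gene Bmp2 had 5 and 9. Of these diestrus loops, 7 at Ptger4 and 7 at Bmp2 were found in estrus. With gene ends within 5 kb Ptger4 had 8 and 10, and Bmp2 had 7 and 9. Of 16 paralogs in the other clusters, 1 had more in estrus and 2 had more in diestrus, none by as much as 2 loops. The median difference was 0 in each of these lists. The lower total of loops in estrus, 24131 against 26240, moves with these counts, and its part in them was not tested.

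Loops do not measure expression, so the tissue could not be checked by its markers. Loops at markers of the cell types of the uterus summed to 0 in estrus and 0 in diestrus for epithelium, 18 and 21 for stroma, 5 and 5 for smooth muscle, 2 and 5 for endothelium and 4 and 2 for immune cells. The part of cell composition in the loops of the HoxA cluster was not tested.

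By number of loops in 3 length classes over the 2 libraries, 4 genes outside the window had the same profile as Hoxa10, with 3 loops in estrus and 2 in diestrus, all over 400 kb. The nearest in contacts were Ergic2, Rps19bp1 and Timd4. For Hoxa11, 25 genes had the same profile, and Rpp30, Rgmb and Mon1b were the nearest in contacts. Likeness over 2 libraries is a description of these lists only.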

How the data were processed

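Hi-C libraries of 1 estrus and 1 diestrus uterus sample were grouped by the stage in their labels. Per the labels' protocols the library kit was Arima HiC, and the reads were processed with Juicer on mm10, per the submitters' processing notes. Not given in the sources used here: aligner, versions, settings of the loop caller. The contacts observed at a loop and the pixels merged into it are raw counts deposited by the authors. The expected contacts of 4 neighbourhoods are signal values of the deposited lists, per the file headers, and the q-values of the deposited lists reach 0.0991 in estrus and 0.0955 in diestrus. Anchor positions are of another kind (other: bases) in the deposited lists, and are given 1-based. Only called loops are listed, so contacts may exist where no loop is listed. Summed contacts of listed loops were 4153485 in estrus and 4533525 in diestrus, and the full depth is not used here.

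A loop was found in the other list when both anchors lay within 10 kb, measured between nearest edges, and mutually nearest loops were paired. Strength was observed over donut-expected contacts, and log2 ratios, estrus over diestrus, were centred on the median of all pairs (0.02 before centring). Intervals were exact Poisson, Clopper-Pearson for shares, exact conditional for ratios with expected contacts taken as exact, and binomial order statistics for medians. A gene had a loop when either of its ends, from RefSeq (GRCm38.p6), lay in an anchor. The code was tested on simulated data (Python 3.11.15, SciPy 1.17.1). Named were the 8 genes and the other cluster genes, loops at an end of the 8, the 5 loops with most contacts per library, up to 8 loops per library of a single list with at least 50 contacts, the 3 largest ratios each way, and list genes that differed by at least 2 loops. Some items under this rule are not reported here. Loops at Hoxa4 and Evx1os, the Igf2bp3 to Skap2 loop and the split of ratios by side were picked with their values known. The 8 genes and all lists were chosen with earlier results of these data known. Other q-value limits, contact minimums, backgrounds, centring, matching and gene assignment were tried.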

Additional observations from a re-analysis of the deposited data

How the results depend on the processing

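With both anchors required inside the window, the number of loops was 30 in estrus and 27 in diestrus. With identical anchors only, 58.3% of estrus and 59.6% of diestrus loops were found in the other list. The bottom-left background put 2 pairs past 1.5-fold with estrus higher and 1 with estrus lower. The remaining 56 of 62 recomputed summary values (numbers of loops, sides, shares and ratios) stayed within 1.5 times the number, or within the interval, of the main value. Some of these could not move. Shortening the diestrus list leaves the estrus numbers as they were, and leaving out the centring shifts every ratio by the same 0.02. Of 85 recomputed ratios of cluster pairs, 4 left their interval, at the loops of Hoxa10 to 50970001 and of Hoxa9 to 51170001. Loop numbers per gene moved most with gene ends within 5 kb. With q-values of at most 0.01 Hoxa7 had no loop left in estrus. No paired analysis was possible because each stage has 1 library, and leaving out a replicate was not possible for the same reason. Loops under about 50 contacts carry the widest counting intervals. The transcription start assignment and the medians by side were added after seeing the data.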
